A study of Mus musculus with 48 samples.

Results

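Accessible chromatin was described around 10 genes of the bone morphogenetic protein (BMP) pathway: the ligand genes *Bmp2*, *Bmp4* and *Bmp7*, the target genes *Id1*, *Id2*, *Id3*, *Id4*, *Msx1* and *Msx2*, and the target and feedback gene *Bambi*. The members were all ATAC-seq peaks within 50 kb of a RefSeq transcription start site of these genes, in the mouse mm10 genome. Overlapping peaks of the 4 peak lists of the study were merged into regions. This gave 138 member regions of 287329 in all, and no region lay near 2 of the genes. ATAC-seq marks open chromatin, since the Tn5 transposase inserts sequencing adapters where DNA is accessible.

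The cells were P19, a line of mouse embryonic teratoma cells grown in serum-containing medium, in 4 states of NODAL/Activin signalling. In the SB-431542 state, signalling was blocked overnight with 10 µM SB-431542, an inhibitor of the NODAL/Activin type I receptors. After a washout, these cells were kept in the same inhibitor for 1 h more. In the 1 h Activin and 8 h Activin states, the same overnight block and washout came before Activin A, given at 20 ng/ml over 1 h or 8 h. The untreated cells received neither agent and signalled chronically through the NODAL and GDF3 that they make themselves. Each state was 1 merged list from 2 biological replicates, so no spread between replicates could be had, no difference between states was tested, and all comparisons are descriptions. In a pooled population, a region open in more cells and a region more open in each cell cannot be told apart.

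BMP ligands signal through their own type I receptors to SMAD1, SMAD5 and SMAD9, which act together with SMAD4, whereas NODAL and Activin signal to SMAD2 and SMAD3. The ID genes and the MSX genes are classical direct targets of the BMP branch. A composite sequence known as the BMP response element, a GC-rich box followed at a fixed distance by a GTCT box, was described in the mouse *Id1* gene and binds SMAD1 or SMAD5 together with SMAD4. SB-431542 blocks the Activin and NODAL receptors and spares the BMP type I receptors.

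The BMP response element was a sequence feature that several member regions shared and that their choice had not used. Since the element was first described in an ID gene, its presence near these genes is a description and no independent finding. It was searched as GGCGCC, any 5 bases and then GTCT, on both strands and over the whole length of each region. It occurred in 8 of 138 member regions (5.8%), against 159 of all 287329 regions (0.0553%). Per length, this was 8 matches in 147.0 kb of member regions (54.6 per Mb), against 161 matches in 257.0 Mb of all regions (0.627 per Mb). The 8 matches belonged to the 6 target genes *Id1*, *Id2*, *Id3*, *Id4*, *Msx1* and *Msx2*, and none was found in regions of *Bmp2*, *Bmp4*, *Bmp7* or *Bambi*. All lay between 0.804 and 4.17 kb from the start site. Regions with a match were long, with a median union width of 2577 bp in the members and 1681 bp in all regions with a match, beside 823 bp for all members and 668 bp for all regions. The count per length takes this width into account, but not base composition or closeness to a start site. The stretches printed below were 52.0% to 80.0% G or C, and the part of these 2 features in the difference was not tested.

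The match nearest to each start site is printed here with 30 bases on either side, on the strand that reads GGCGCC first. Capitals mark the GGCGCC and GTCT boxes of the element, and the sequence between them is the spacer. The *Id1* match lay 3.23 kb downstream of the start site. Each is a match to the letters only, and whether the *Id1* match is the element first described in that gene was not tested. The sequences were read from mm10 at chr2:152739441-152739515 (*Id1*, plus strand), chr12:25098824-25098898 (*Id2*, minus strand), chr4:136140510-136140584 (*Id3*, plus strand), chr13:48262860-48262934 (*Id4*, plus strand), chr5:37823744-37823818 (*Msx1*, minus strand) and chr13:53476341-53476415 (*Msx2*, minus strand).

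Id1 element: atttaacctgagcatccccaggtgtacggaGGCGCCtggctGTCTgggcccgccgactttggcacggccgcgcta
Id2 element: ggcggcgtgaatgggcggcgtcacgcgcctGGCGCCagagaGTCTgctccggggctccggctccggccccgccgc
Id3 element: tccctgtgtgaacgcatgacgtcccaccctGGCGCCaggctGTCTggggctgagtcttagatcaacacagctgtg
Id4 element: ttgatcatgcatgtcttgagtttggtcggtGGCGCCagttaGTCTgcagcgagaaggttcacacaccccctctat
Msx1 element: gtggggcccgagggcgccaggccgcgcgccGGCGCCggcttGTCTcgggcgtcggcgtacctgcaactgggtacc
Msx2 element: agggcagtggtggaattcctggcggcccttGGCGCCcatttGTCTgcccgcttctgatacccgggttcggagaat

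The 2 matches that are not shown lay at chr12:25093044-25093058, 3.04 kb downstream of the *Id2* start site, and at chr4:136147981-136147995, 4.17 kb downstream of the *Id3* start site. None of the 8 matches fell in an annotated exon. The *Id4* match lay in an intron of *Id4* and in the promoter window of the antisense transcript A330033J07Rik, and the *Msx1* match in the intron of *Msx1*. The *Id3* match upstream of the gene lay in an intron of the noncoding RNA gene Gm42329, and the other 5 were intergenic.

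Every match was covered by a peak in all 4 lists. Each such peak has a fold enrichment, the mean read pileup over the peak divided by the local background, as the authors' peak caller gave it. Over the *Id1* match it was 2.4 in SB-431542, 2.25 after 1 h Activin, 2.14 after 8 h Activin and 1.84 in untreated cells, so untreated cells had the lowest value. Over the upstream *Id3* match it was 3.9, 3.66, 3.86 and 3.75 in the same order of states, nearly level. Over the *Id4* match it was 3.58, 3.6, 3.65 and 3.36, and over the *Msx1* match 2.76, 2.62, 2.68 and 2.75. In these 3 elements, the value with the receptors blocked was close to both Activin values. The peaks over the *Id4* and *Msx1* matches are also the promoter peaks of these genes, so their promoter values below are the same observations. At *Id4* the peak was 2442 to 3012 bp wide, so its mean says little about the element alone. The upstream *Msx2* match had 4.0 in SB-431542, 3.87 after 1 h Activin, 3.46 after 8 h Activin and 3.32 in untreated cells, the same descending order as *Id1*. The upstream *Id2* match had 2.36, 2.5, 2.39 and 2.31, and the *Id2* match downstream of the gene 3.07, 2.74, 2.56 and 2.75, highest in SB-431542. The downstream *Id3* match had 2.57, 2.58, 2.46 and 2.33, lowest in untreated cells, and its region ranged over 14.5 percentile points, against 0.906 points for that of the upstream *Id3* match. Across all 159 regions with a match in the genome, 144 (90.6%) had a peak in every list, and 77 overlapped the promoter of a RefSeq gene.

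**Figure D1:**
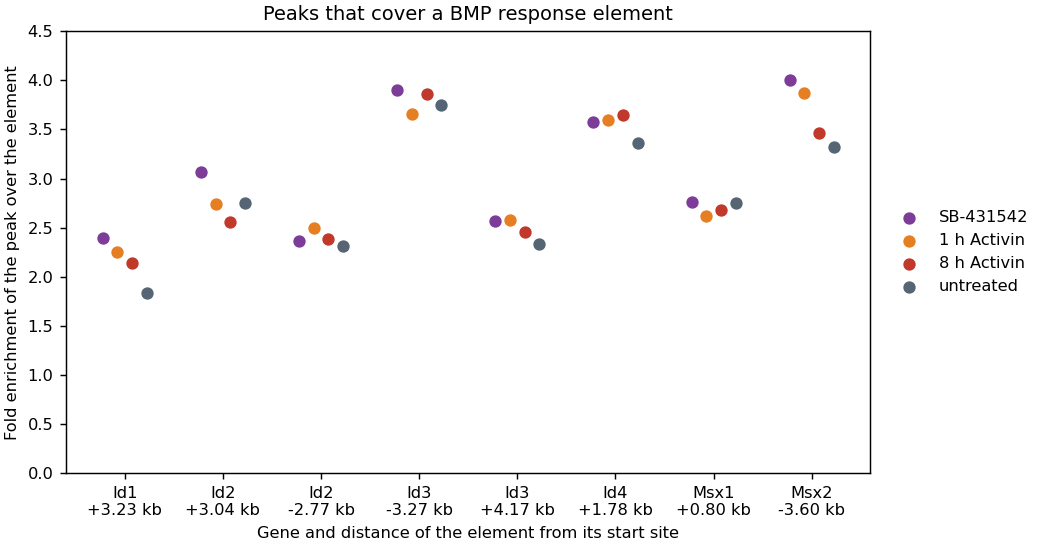
Fold enrichment over local background (vertical axis) of the peak that covers each of the 8 BMP response elements, by gene and distance of the element from the start site (horizontal axis), with 1 point for each of the 4 merged lists and no error bars because the lists hold no replicates. The *Id1* and *Msx2* elements are lowest in untreated cells and highest in SB-431542 (1.84 against 2.4, and 3.32 against 4.0), and the *Id4* and *Msx1* elements stay within 3.36 to 3.65 and 2.62 to 2.76.

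Shorter SMAD and cofactor motifs were searched in the central 300 bp of each region, on both strands. GGCGCC, which is also the first part of the response element, occurred in 13 of 138 member regions (9.42%), against 2.66% of all regions. Leaving out regions that overlap a promoter, it was in 9 of 120 member regions (7.5%), against 1.6% of the others. The related GGAGCC was in 44 member regions (31.9%), against 21.3% of all regions. Base composition was not matched in these comparisons, and its part in the differences was not tested. The letters of the other motifs were no more frequent near the members. The FOX motif GTAAACA was in 5 (3.62%, against 4.34%), and the TCF/LEF motif CTTTGAT in 6 (4.35%, against 5.3%). The FOXH1 motif AATCCACA and the SMAD palindrome GTCTAGAC were in 0 of 138, against 1.32% and 0.281% of all regions.

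RefSeq promoter sequences (GRCm38.p6, from 250 bases before to 50 after the start) were at hand for 6 of the 10 genes: *Bmp4*, *Id2*, *Id3*, *Id4*, *Msx1* and *Msx2*. GGAGCC was in all 6, against 30.8% of 32851 RefSeq promoters. GGCGCC was in the promoters of *Id2* and *Id4*, against 11.9% of all, and the composite element in 0 of 6, against 0.0731%. Base composition was not matched here either. The *Id2* and *Id4* promoters are shown because they hold GGCGCC. Capitals mark GGCGCC and GGAGCC, and each is given on the strand of its gene, at chr12:25096043-25096342 (*Id2*, minus strand) and chr13:48260866-48261165 (*Id4*, plus strand).

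Id2 promoter: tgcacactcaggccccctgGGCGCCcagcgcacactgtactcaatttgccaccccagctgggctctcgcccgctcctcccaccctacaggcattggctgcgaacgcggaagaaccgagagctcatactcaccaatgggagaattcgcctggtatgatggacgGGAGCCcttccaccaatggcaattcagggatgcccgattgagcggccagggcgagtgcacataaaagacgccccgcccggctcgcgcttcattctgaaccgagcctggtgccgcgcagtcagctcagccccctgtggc
Id4 promoter: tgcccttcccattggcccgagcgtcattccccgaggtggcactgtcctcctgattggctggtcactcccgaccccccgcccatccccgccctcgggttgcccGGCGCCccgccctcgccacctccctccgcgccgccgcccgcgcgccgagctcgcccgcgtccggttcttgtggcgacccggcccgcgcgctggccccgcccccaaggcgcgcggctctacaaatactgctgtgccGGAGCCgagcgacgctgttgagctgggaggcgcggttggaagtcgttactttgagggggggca

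All 10 promoters had a peak in all 4 lists. A promoter region here is the region that overlaps the stretch from 1000 bp upstream to 100 bp downstream of the start site. Of 17616 promoter regions of any RefSeq gene, 16241 (92.2%) were in every list. Fold enrichment at the 10 promoters ran between 2.45 and 4.92 over all lists. To compare lists, each value was also given as a percentile among the 162505 regions that all 4 lists share. A percentile of 50 is then the middle of the shared regions in that list, and not of the whole list. In SB-431542, median fold enrichment was 2.67 over the shared regions and 2.27 over all peaks of the list.

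Among the ligands, *Bmp2* (start site chr2:133552159, plus strand), an early embryonic BMP, had a promoter fold enrichment of 3.14 in SB-431542, 3.1 after 1 h Activin, 3.09 after 8 h Activin and 3.07 in untreated cells. Its promoter peak was over 3 kb wide in every list, between 3209 and 3298 bp. *Bmp4* (chr14:46390669, minus strand), a ligand of the early embryo, had 2.8, 2.73, 2.89 and 3.07, the highest in untreated cells. *Bmp7* (chr2:172940321, minus strand), which can pair with BMP2 or BMP4, had 2.51, 2.55, 2.61 and 2.45. The percentiles of these promoters ranged over 4.46, 9.39 and 8.21 points for *Bmp2*, *Bmp4* and *Bmp7*. Every ligand promoter thus had its peak with the NODAL/Activin receptors blocked, and none differed by 10 percentile points between any pair of lists.

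The ID proteins bind basic helix-loop-helix factors and keep them from DNA. The promoter of *Id1* (chr2:152736251, plus strand) had a fold enrichment of 2.76 in SB-431542, 2.85 after 1 h Activin, 3.01 after 8 h Activin and 2.58 in untreated cells. Its percentiles were 52.6, 61.2, 61.2 and 48.5, so by fold enrichment both Activin lists stood above the other 2. The region joins 2, 2, 3 and 2 peaks in these lists, and each value is the highest of them. With a width-weighted mean over the peaks, the percentiles were closer, at 46.8, 51.9, 48.8 and 43.1. The difference of 8 h Activin minus SB-431542 was then 2.03 points in place of 8.58. The peak over the *Id1* response element, which was lower after Activin, lies in the same region. By the read pileup that the fold enrichment and the p-value together imply, the percentiles were 98.2, 97.6, 96.0 and 93.2, with SB-431542 highest. *Id2* (chr12:25096092, minus strand) had 3.41, 3.32, 4.04 and 3.75. This placed it at percentiles 68.1, 71.6, 80.0 and 76.9, and the difference of 8 h Activin minus SB-431542 was 11.9 points. *Id3* (chr4:136143822, plus strand) was the most even of the 4, with 2.71, 2.7, 2.7 and 2.75. *Id4* (chr13:48261116, plus strand) had 3.58, 3.6, 3.65 and 3.36.

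The MSX genes encode homeobox repressors of the embryonic ectoderm and mesenchyme. *Msx1* (chr5:37824585, minus strand) had a promoter fold enrichment of 2.76 in SB-431542, 2.62 after 1 h Activin, 2.68 after 8 h Activin and 2.75 in untreated cells, within 2.41 percentile points. *Msx2* (chr13:53472780, minus strand) had 2.85, 2.97, 3.3 and 3.22, at percentiles 55.3, 64.0, 67.6 and 66.6. Its differences against SB-431542 were 12.4 points after 8 h Activin and 11.4 points in untreated cells. *Bambi* (chr18:3507957, plus strand), a membrane protein that resembles a type I receptor without a kinase and dampens signalling, had the highest promoter of the 10, with 4.92, 4.83, 4.83 and 4.76.

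In all, 3 of the 10 promoters (*Id1*, *Id2* and *Msx2*) ranged over more than 10 percentile points of highest fold enrichment across the 4 lists. With a width-weighted mean, the *Id1* percentiles lay only between 43.1 and 51.9. By highest fold enrichment, the share of all RefSeq promoter regions with such a range was 25.8%. The median range was 7.53 points for the 10, against 5.42 points for all promoter regions. The direction of the promoter differences depended on the measure. With pileup in place of fold enrichment, 20 of the 30 differences of the 10 promoters against SB-431542 had the other sign. By pileup, however, the 10 promoters already stood at percentiles 91.8 to 99.8 in SB-431542. No rise of 10 points was therefore possible by pileup, and its sign says little where the difference is small. The difference of 8 h Activin minus SB-431542 was then -0.215 points for *Id2*, -1.51 points for *Msx2* and -2.2 points for *Id1*, and that of untreated minus SB-431542 was -5.09 points for *Msx2*.

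**Figure D2:**
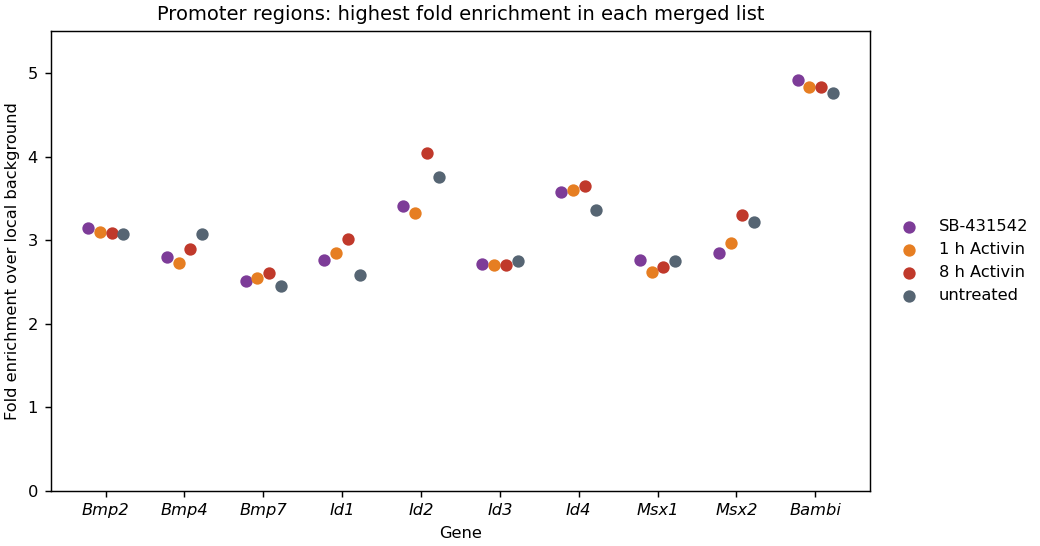
Highest fold enrichment over local background (vertical axis) at the promoter region of each of the 10 genes (horizontal axis), with 1 point for each of the 4 merged lists and no error bars because the lists hold no replicates. All points lie between 2.45 and 4.92, *Bambi* is the highest in every list, and by fold enrichment *Id2* and *Msx2* are over 10 percentile points higher in 8 h Activin than in SB-431542. By pileup these 2 stood at percentiles 99.3 and 92.3 in SB-431542, so a rise of 10 points was not possible.

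The neighbourhoods, counted with the promoters in them, were less even than the 10 promoters alone. Of the 138 regions, 87 (63.0%) had a peak in every list, with a 95% Wilson interval of 54.7% to 70.6%, against 56.6% of all regions and 61.1% of the regions within 50 kb of any RefSeq start site. The other 51 regions were in 3 lists (13), 2 lists (18) or 1 list (20). Of the member regions that overlapped a RefSeq promoter, 17 of 18 were in every list, against 92.2% of all RefSeq promoter regions. Away from promoters, 6 of 14 regions over exons, 13 of 26 in introns and 51 of 80 intergenic regions were in every list. The same shares over all exon, intron and intergenic regions were not counted, so the order of these classes is not a result about the members. The 63.0% includes promoter regions and is not a share for regions away from them. By group, 24 of 43 regions of the ligand genes, 38 of 57 of the ID genes, 17 of 24 of the MSX genes and 8 of 14 of *Bambi* were in every list. *Msx2* had the most constant neighbourhood, with 9 of 10 regions in every list, and *Bmp7* the least, with 6 of 15. The pattern most often seen among the 51 was a peak in the SB-431542 and 1 h Activin lists alone, with 10 regions (7.25%, against 6.5% of all regions). A peak in the SB-431542 list alone came next, with 8 regions (5.8%, against 4.91%), and 4 of these lay near *Bmp7*. Within 10 kb of a start site 26 of 36 regions were in every list, and farther out 61 of 102. The shares of all regions at these distances were not counted either.

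**Figure D3:**
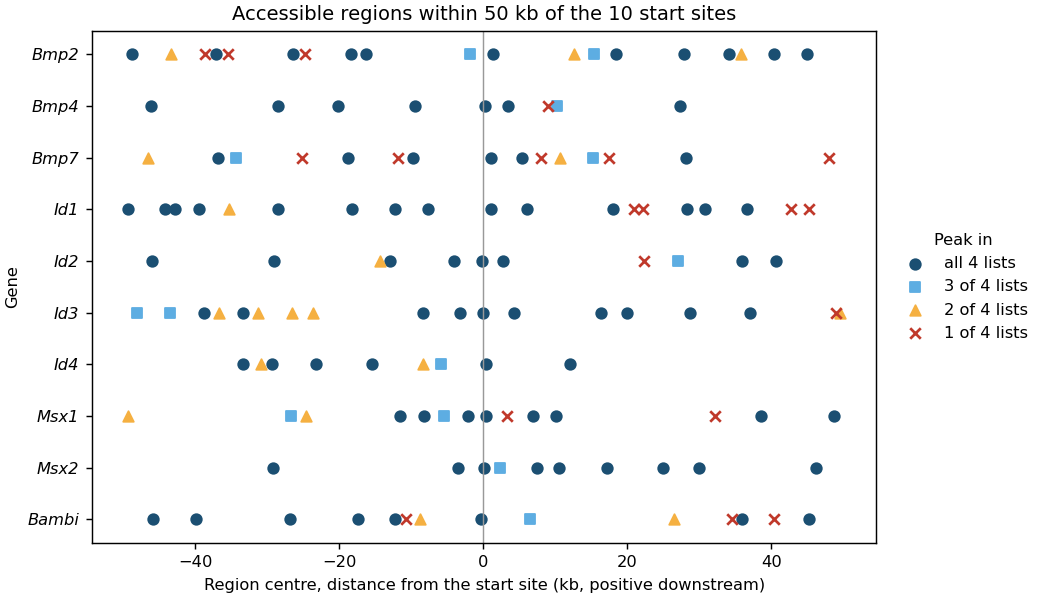
Each symbol is 1 of the 138 regions, at the distance of its centre from the start site in kb (horizontal axis, positive downstream) and in the line of its gene (vertical axis), with colour and shape for the number of the 4 merged lists that hold a peak there. Regions in all 4 lists (87 of 138) surround every start site, and the regions in 1 list only (20) lie mostly near *Bmp7*, *Id1*, *Bmp2* and *Bambi*.

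The lists themselves differed in size, which bears on presence. They held 234758 peaks in SB-431542, 233336 after 1 h Activin, 209212 after 8 h Activin and 220004 in untreated cells, and the median local background implied by the scores was 32.3, 30.1, 26.0 and 27.8 reads in the same order. Read counts were not in the files. The study's methods give a range of reads over the merged samples and no value for each state. The depth of each list is therefore unknown, and its part in gained and lost regions was not tested. The defining markers of the cells were as labelled: promoters of 7 of 8 pluripotency genes (all but *Dppa4*) had a peak in every list, against 4 of 12 genes of liver, muscle and blood.

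The shares of member regions that were gained, lost or shifted lay mostly within counting error of those of all regions. The first 3 of the 4 comparisons share the SB-431542 list. After 1 h Activin, 6 of 126 member regions were gained over SB-431542 (4.76%, against 10.6% of all regions) and 18 were lost (14.3%, against 11.0%). Gained means a peak in the first list of the pair and none in the second, and lost the reverse. Of the 87 regions in every list, 13 were over 10 percentile points higher after 1 h Activin than in SB-431542 (14.9%, against 11.3%) and 11 lower (12.6%, against 12.1%). After 8 h Activin, 8 of 128 were gained over SB-431542 (6.25%, against 9.2%) and 23 lost (18%, against 19.4%). Of the 87, 14 were higher (16.1%, against 18.7%) and 17 lower (19.5%, against 18.5%). More member regions were lost than gained in each of these comparisons, as was the case over all regions.

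In untreated cells, 13 of 133 member regions were gained over SB-431542 (9.77%, against 11.7%) and 23 lost (17.3%, against 17.1%), with 12 of 87 higher (13.8%, against 19.9%) and 19 lower (21.8%, against 18.8%). After 8 h Activin, 12 of 120 were gained over 1 h Activin (10.0%, against 10.1%) and 15 lost (12.5%, against 19.8%), with 7 of 87 higher (8.05%, against 19.5%) and 20 lower (23.0%, against 18.8%). The share of all regions lay outside the 95% Wilson interval of the member share in 3 of the 16 counts. These were gained after 1 h Activin (2.2% to 10.0%), and lost (7.72% to 19.6%) and higher (3.95% to 15.7%) after 8 h against 1 h Activin. Among regions within 50 kb of any RefSeq start site, the shares of these 3 were 7.03%, 14.8% and 16.9%, of which only the last lay outside. The share of such regions higher after 1 h Activin than in SB-431542, 8.83%, also lay outside the interval of its member share (14.9%, 8.95% to 23.9%). With pileup in place of fold enrichment, that member share was 8.05% (7 of 87, against 8.59% of all regions). The member share higher after 8 h than after 1 h Activin, 8.05%, was 14.9% (10 of 67, against 21.4% of all regions) with peaks of a -log10 q of at least 5. In a window of 100 kb it was 15.4% (22 of 143, against 19.5%). Intervals cover counting error over regions only and treat regions as independent, which neighbours are not.

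**Figure D4:**
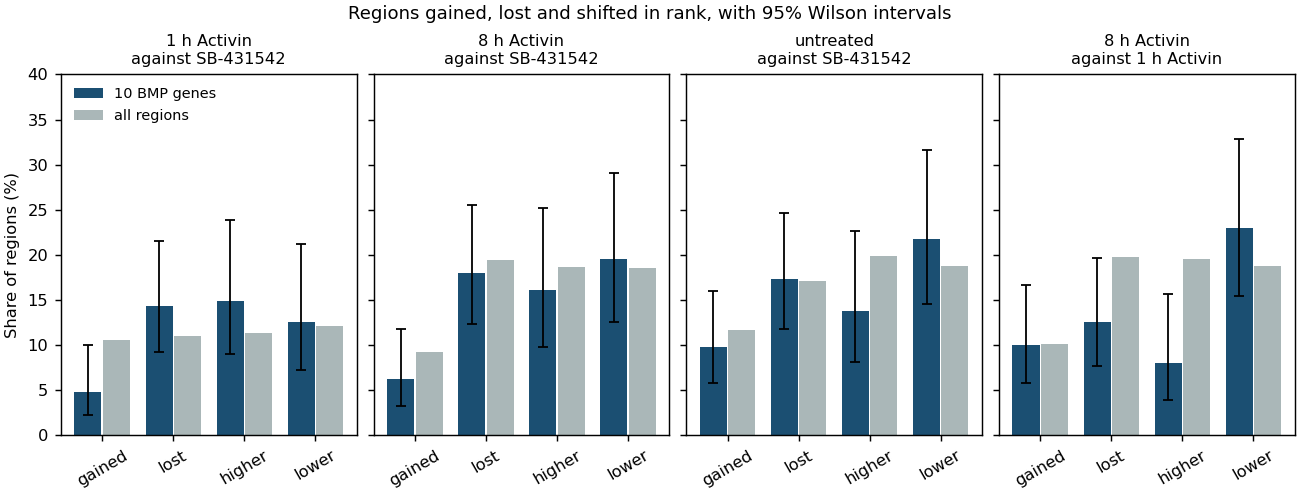
Share of regions in percent (vertical axis) that were gained, lost, over 10 percentile points higher or over 10 points lower (horizontal axis) in each of the 4 comparisons, for the 10 BMP genes (dark bars, with 95% Wilson intervals) beside all regions (grey bars). In 13 of the 16 pairs the grey bar ends within the interval of the dark bar, and the widest gap is for regions higher after 8 h than after 1 h Activin (8.05% beside 19.5%).

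Median levels told the same. The median percentile of the 87 regions was 55.5 in SB-431542, 57.8 after 1 h Activin, 55.8 after 8 h Activin and 54.3 in untreated cells. For all shared regions it is 50 by construction. Median peak width was 948, 843, 896 and 850 bp, against 748, 752, 685 and 739 bp for all regions in every list. The median log2 ratio of fold enrichment was -0.07 after 1 h Activin, -0.04 after 8 h Activin and -0.09 in untreated cells, each over SB-431542, against -0.07, -0.02 and -0.03 for all.

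Some single regions nevertheless moved far. The percentile range over the 4 lists had a median of 13.1 points in the 87 regions, against 14.6 points in all 162505, and exceeded 20 points in 29 of 87 (33.3%, against 32.4%). By group, these were 13 of 24 regions of the ligand genes, 9 of 38 of the ID genes, 2 of 17 of the MSX genes and 5 of 8 of *Bambi*. The region with the widest range of each gene is given next.

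The widest range of all was 36.0 kb downstream of the *Bambi* start site, at chr18:3543560-3544299, an intergenic region whose nearest RefSeq start site is that of *Bambi*. Its fold enrichment was 1.93 in SB-431542, 2.16 after 1 h Activin, 5.27 after 8 h Activin and 2.91 in untreated cells. Its percentiles were 17.4, 35.2, 91.7 and 58.8, a range of 74.3 points that 0.127% of all shared regions (207) equalled or exceeded. The peak was 303 bp wide in SB-431542 and 701, 717 and 548 bp in the other lists, and its -log10 q was 4.16, 6.08, 47.5 and 13.5. At 8 h this distal region was above the *Bambi* promoter in fold enrichment (5.27, against 4.83), while the promoter itself was nearly level in all lists. By the other measures it was below the promoter at 8 h, with a pileup percentile of 76.1 against 99.8 and a -log10 q of 47.5 against 271.0. By pileup the order of the lists was unchanged, at percentiles 14.5, 32.0, 76.1 and 49.1. Other *Bambi* regions ran the other way. A region 26.8 kb upstream had percentiles of 53.7, 31.1, 18.2 and 11.8, a range of 41.9 points. Of the 8 *Bambi* regions in every list, 1 was over 10 points higher and 3 were lower after 8 h Activin than in SB-431542. The shares of all regions were 18.7% and 18.5%.

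Next came a region 33.3 kb upstream of *Id3*, at chr4:136110046-136110908, also intergenic, which ran the other way. It had a fold enrichment of 3.5 in SB-431542, 2.96 after 1 h Activin, 2.03 after 8 h Activin and 2.01 in untreated cells. The percentiles were 69.8, 63.7, 23.4 and 21.9, so the long and the chronic signalling states stood together and apart from the other 2. Its nearest start site was that of Gm42329, 31.7 kb away. A region 26.4 kb upstream of *Bmp2*, at chr2:133525278-133526173, had 3.01, 2.73, 1.91 and 2.51. Its percentile was 15.6 after 8 h Activin, against 59.5, 57.8 and 45.9 in SB-431542, 1 h Activin and untreated cells, and thus it was low in the 8 h list alone.

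Near *Id2*, a region 12.9 kb upstream, at chr12:25108618-25109316, was low in the 1 h list alone, with a fold enrichment of 2.44, 1.86, 2.81 and 2.72. Its percentiles were 42.1, 16.1, 55.8 and 53.3. Near *Id1*, a region 6.03 kb downstream of the start site, at chr2:152741569-152742985, had 2.13 in SB-431542, 1.96 after 1 h Activin, 2.69 after 8 h Activin and 2.97 in untreated cells. Its percentiles of fold enrichment were 28.6, 22.9, 52.1 and 60.4, whereas those of pileup were level, at 89.6, 88.3, 88.4 and 87.0. The gain in rank at the *Id1* region was therefore seen in the enrichment over local background and not in the pileup.

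For the *Id3*, *Bmp2*, *Id2* and *Id1* regions, 2.31%, 3.41%, 5.12% and 6.4% of all shared regions had as wide a range. The remaining 5 genes had narrower ranges. For those of *Bmp7*, *Msx1*, *Bmp4* and *Id4* these shares were 7.58%, 16.1%, 22.9% and 27.6%. Each region was picked as the widest of its gene, so ranges of this size are common. In an intron of *Bmp7*, 28.2 kb into the gene at chr2:172911370-172912856, fold enrichment was 2.82, 2.22, 3.34 and 3.58, lowest after 1 h Activin and highest in untreated cells. A region 8.16 kb upstream of *Msx1*, at chr5:37832292-37833194, had 2.01, 2.13, 2.62 and 2.18, highest after 8 h Activin. A region 46.2 kb upstream of *Bmp4*, at chr14:46436364-46437312, had 3.93, 3.04, 3.04 and 2.72, highest in SB-431542. A region 15.5 kb upstream of *Id4*, at chr13:48245237-48245983 over an exon of the noncoding gene Gm36183, had 2.67, 3.33, 3.09 and 2.8, highest after 1 h Activin. The widest range of *Msx2*, 29.9 kb downstream at chr13:53441424-53444287 in an intron of Gm2762, was 13.5 points, and 53.9% of all shared regions had as wide a range.

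**Figure D5:**
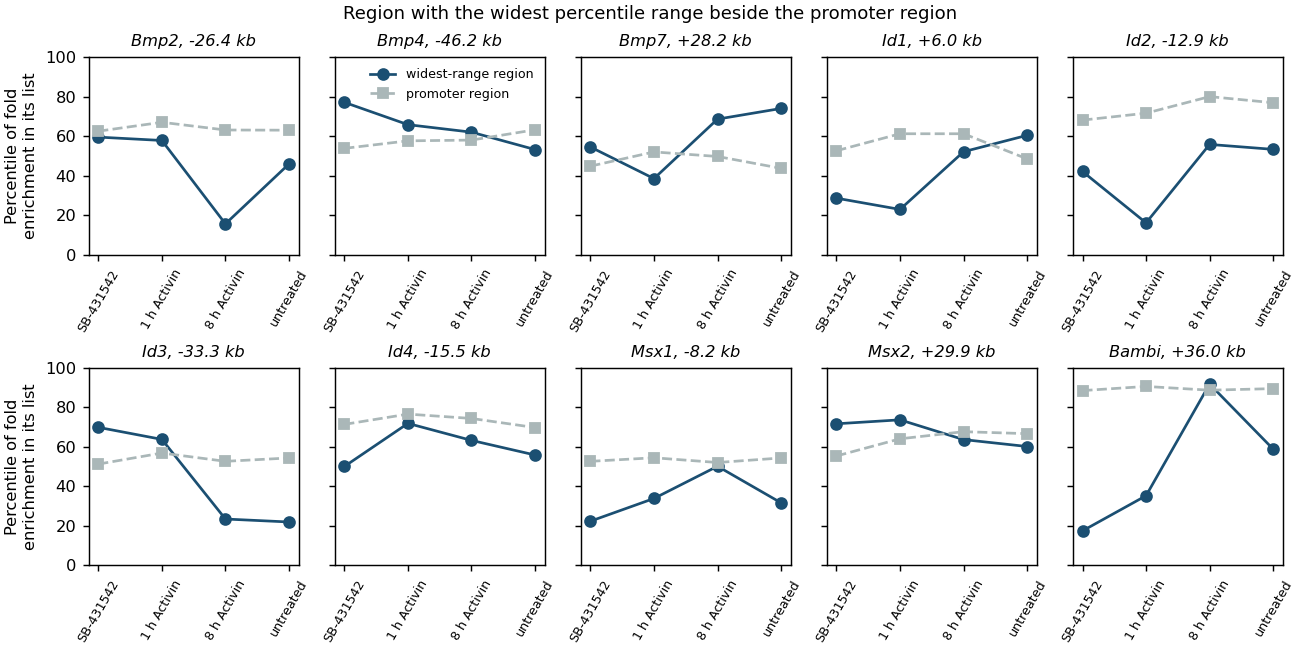
Percentile of fold enrichment among the regions shared by the 4 lists (vertical axis) in each merged list (horizontal axis), for the region with the widest range of each gene (circles, distance from the start site in the panel title) beside its promoter region (squares). *Bambi* +36.0 kb runs between 17.4 and 91.7, *Id3* -33.3 kb between 21.9 and 69.8, and the 10 promoters each stay within 12.6 points.

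The 4 regions of widest range whose sequence can be shown here are those of *Id3*, *Bmp2*, *Id2* and *Id1*. The central 300 bases of each are given, on the plus strand, because these are the windows in which the motifs were searched. None of the 7 motifs was found in any of the 4, so no base is in capitals. They were read from mm10 at chr4:136110328-136110627 (*Id3*), chr2:133525576-133525875 (*Bmp2*), chr12:25108818-25109117 (*Id2*) and chr2:152742128-152742427 (*Id1*).

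Id3 region: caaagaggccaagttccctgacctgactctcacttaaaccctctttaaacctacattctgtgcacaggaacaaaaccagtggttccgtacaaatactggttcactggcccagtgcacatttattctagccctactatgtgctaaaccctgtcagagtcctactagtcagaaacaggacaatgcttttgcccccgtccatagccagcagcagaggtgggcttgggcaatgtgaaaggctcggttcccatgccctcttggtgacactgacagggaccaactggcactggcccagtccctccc
Bmp2 region: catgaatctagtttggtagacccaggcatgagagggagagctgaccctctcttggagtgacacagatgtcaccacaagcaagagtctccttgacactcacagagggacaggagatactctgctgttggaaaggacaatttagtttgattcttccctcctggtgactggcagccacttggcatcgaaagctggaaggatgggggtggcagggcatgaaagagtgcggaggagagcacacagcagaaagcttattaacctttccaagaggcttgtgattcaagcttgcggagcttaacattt
Id2 region: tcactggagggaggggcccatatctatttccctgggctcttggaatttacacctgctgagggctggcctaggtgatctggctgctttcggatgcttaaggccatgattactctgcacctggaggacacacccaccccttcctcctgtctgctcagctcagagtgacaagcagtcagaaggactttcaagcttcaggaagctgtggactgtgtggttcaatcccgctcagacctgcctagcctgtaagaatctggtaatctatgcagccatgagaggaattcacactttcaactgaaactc
Id1 region: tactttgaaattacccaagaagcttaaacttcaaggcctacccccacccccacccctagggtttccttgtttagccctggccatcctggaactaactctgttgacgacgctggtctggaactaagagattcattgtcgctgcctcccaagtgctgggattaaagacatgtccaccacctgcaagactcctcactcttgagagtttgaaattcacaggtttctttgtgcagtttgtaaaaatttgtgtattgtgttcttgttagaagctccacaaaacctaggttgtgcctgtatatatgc

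Regions in only some lists were mostly weak. The 5 with the highest -log10 q in any list were as follows. A region 8.4 kb upstream of *Id4*, in an intron of A330033J07Rik at chr13:48252555-48252869, had a peak in SB-431542 (fold enrichment 2.51, -log10 q 10.5) and after 1 h Activin (3.3 and 20.1), and none after 8 h Activin or in untreated cells. A region 35.3 kb upstream of *Id1*, in an intron of H13 at chr2:152700710-152701167, had the same pattern, with 2.5 in SB-431542 and 2.63 after 1 h Activin. Both were thus called only in the 2 lists from cells with no or brief signalling. At *Msx1*, a region 5.5 kb upstream at chr5:37829361-37830819 had 1.94 in SB-431542, 1.83 after 1 h Activin and 2.01 after 8 h Activin and no peak in untreated cells. In the *Msx2* intron, 2.29 kb into the gene at chr13:53469846-53471130, fold enrichment was 2.2, 1.92 and 1.69 in the same 3 lists, with no peak in untreated cells. Just upstream of the *Bmp2* promoter, 1.82 kb from the start site at chr2:133550234-133550446, a narrow peak of 200 to 210 bp was called after 1 h Activin (1.68), 8 h Activin (1.65) and in untreated cells (1.73) and not in SB-431542.

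At the edge of the 50 kb window, the members farthest out were a region of *Msx1* at 49.17 kb (fold enrichment 2.61 in SB-431542, 2.25 after 1 h Activin, no peak later) and a region of *Id3* at 49.12 kb (1.94 in SB-431542, 2.04 in untreated cells). Just outside it were a region of *Bmp7* at 50.22 kb, in every list at 2.99, 2.95, 2.82 and 3.27, and a region of *Bmp2* at 52.1 kb, with 2.98 in SB-431542 and 3.11 after 1 h Activin. The windows also held the start sites of 0 to 3 other RefSeq genes each, so a region near a member need not act on it.

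A further 22 genes of the pathway were counted in the same way. The promoters of all 5 BMP receptors (*Bmpr1a*, *Bmpr1b*, *Bmpr2*, *Acvr1*, *Acvrl1*), all 4 SMADs of the branch (*Smad1*, *Smad5*, *Smad9*, *Smad4*), 6 secreted antagonists (*Nog*, *Chrd*, *Grem1*, *Fst*, *Twsg1*, *Bmper*), all 3 intracellular inhibitors (*Smad6*, *Smad7*, *Smurf1*) and all 4 further ligands (*Bmp5*, *Bmp6*, *Bmp8a*, *Gdf6*) had a peak in every list. Of their 319 regions within 50 kb, 198 (62.1%) were in every list, close to the 63.0% of the 10 members. After 8 h Activin, 31 of these 198 were higher than in SB-431542 (15.7%, against 18.7% of all regions) and 34 lower (17.2%, against 18.5%). After 1 h Activin, 18 were higher (9.09%, against 11.3%) and 23 lower (11.6%, against 12.1%). The BMP response element was found near 1 of the 22, *Grem1*, which encodes a secreted BMP antagonist.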

How the data were processed

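ATAC-seq of P19 cells in 4 states was analysed from the deposited peak lists. Per the labels there were 48 libraries, 12 for each state and 6 for each of its replicates, and the study's methods name 8 sequenced samples. According to the methods and the submitters' processing notes, the authors used cutadapt 1.9.1 to trim adapters and BWA 0.6.2 for alignment to mm10, filtered out mitochondrial and discordant pairs (bedtools 2.26.0), merged the libraries of a state with Picard, removed duplicates, and called broad peaks with MACS2 2.1.1.20160309, with reads shifted and extended so that the pileup centred on the transposase cut sites. Calling on merged reads means that agreement between replicates does not enter the lists. The deposited fold enrichment is a ratio of pileup to local background, averaged over a peak. The deposited −log10 of the p-value and the −log10 q score (lowest 1.01) are the authors' Poisson measures of a peak against that background, and do not compare states.

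Peaks that overlapped by 1 bp or more were merged into regions (Python 3.11.15, numpy 2.4.6, pandas 2.3.3, pysam 0.24.0 and scipy 1.17.1). A region's value in a list was its highest fold enrichment there, turned into a percentile over the regions in all 4 lists. This removes a uniform change of scale between lists but leaves presence dependent on depth, which is given only as a range over the merged samples. Start sites came from 45755 RefSeq transcripts of GRCm38.p6, whose coordinates are those of mm10. Named were all 10 genes, each with its promoter and its shared region of widest percentile range, and the 5 strongest regions in some lists only. The 10 members, the other lists, the motifs and these rules were chosen with earlier results of these data known. Of the other pathway lists, 1 gene is not reported here. The *Id2* and *Id4* promoter sequences were chosen after their motifs were seen. Shares were given with 95% Wilson intervals (counting error only). The pileup was estimated as the value that gives both the fold enrichment and the p-value under a Poisson background. The functions were tested on simulated data. Alternatives were a −log10 q of at least 5, lists of equal length, merging within 200 bp, 50% overlap, a width-weighted mean, −log10 q or pileup in place of fold enrichment, region centres, windows of 10 and 100 kb, and leaving out the gene with the most regions.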

Additional observations from a re-analysis of the deposited data

How the results depend on the processing

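The 16 shares of member regions (gained, lost, higher and lower in 4 comparisons) were recomputed 160 times, and 145 values stayed within the 95% Wilson interval of the share reported, among them all values with lists of equal length, merging within 200 bp, region centres, a window of 100 kb, and without *Bmp2* or without *Id1*, which tie for the most regions. The share of all regions under the same setting follows each value. A window of 10 kb gave 5.71% lost (11.0%) and 0.0% lower (12.1%) after 1 h Activin, 5.56% lost (19.4%) and 7.14% lower (18.5%) after 8 h Activin, and 7.69% lost (17.1%), 10.7% lower (18.8%) and 7.14% higher (19.9%) in untreated cells, each against SB-431542, and 5.56% lost (19.8%) after 8 h against 1 h Activin. With pileup in place of fold enrichment, 8.05% (8.59%), 4.6% (15.3%) and 6.9% (16.5%) were higher after 1 h Activin, after 8 h Activin and in untreated cells, each against SB-431542, and 12.6% (15.9%) lower after 8 h against 1 h Activin. With 50% overlap, 12.5% (13.5%) were gained after 8 h Activin and 16.5% (17.1%) in untreated cells, both against SB-431542. With a −log10 q of at least 5, 4.26% (12.3%) were gained after 8 h against 1 h Activin. The cause of these changes was not tested. Of 60 recomputed promoter differences, 56 moved by less than 10 points. The sign changed in 20 of 30 with pileup and in 0 of 30 with a width-weighted mean. By pileup all 10 promoters were at percentile 91.8 or above in SB-431542, which left little room for a rise. Of the differences over 10 points, 3 changed sign with pileup: 8 h Activin minus SB-431542 at *Id2* (-0.215) and *Msx2* (-1.51), and untreated minus SB-431542 at *Msx2* (-5.09). No paired analysis was possible because each list merges the replicates, and for the same reason no replicate could be left out.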
